A study of Mus musculus with 9 samples.

Results

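The 41 genes described here encode plasma proteins of the complement and coagulation cascades. Of these, 19 were counted with complement, 20 with coagulation, and 2 regulators, Vtn and Clu, with neither. They were chosen by gene name, and each was represented by the probe with the highest mean signal over 9 arrays. All 41 were among the 37074 gene names of the arrays.

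Hepatocytes secrete most of these proteins into the blood as inactive precursors. In complement, C1 or the mannose-binding lectins start a chain of proteases that cleaves C4, C2 and C3, and the terminal components then form a pore in the target membrane. In coagulation, the contact and tissue factor pathways activate factor X, which makes thrombin from prothrombin, and thrombin turns fibrinogen into fibrin. Several clotting factors and anticoagulants need vitamin K for their modification, and many members of both cascades are known to change in the acute-phase response of the liver.

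The study compared livers of male C57BL/6N mice given a hepatocyte-specific adeno-associated virus (AAV). The virus held an empty vector (AAV-V) or GP73, a Golgi protein (AAV-GP73), and these mice ate regular chow. The other mice received the empty vector and a high-fat diet (AAV-V HFD). Each group had 3 arrays of liver RNA, and every sample was labelled 12 months. In the paper this is the time after injection, and its account of the length of the HFD differs between results and methods. It was not stated if RNA of single or pooled mice was used, so p values measure the spread between these samples. All 3 groups carried a virus, and no group received GP73 together with HFD. The gene for GP73, Golm1, could not be used to check the labels, since no array detected its single probe.

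Between 10.2% and 18.4% of the 59305 non-control spots were well above background, the fewest on the AAV-V arrays (10.2% to 10.7%). A probe is called detected below where the scanner software marked it as well above background. Slide 1 held AAV-V and AAV-GP73, each in a column of its own, and slide 2, with another scan date, held AAV-V HFD. Column and GP73 are thus differences that cannot be told apart, and so are slide, scan and diet. Before scaling, the median signal of the spots that every array detected was 36.4 to 41.8 on AAV-V arrays. It was 138 to 169 on AAV-GP73 and 95.4 to 202 on AAV-V HFD arrays. Hepatocyte markers were detected as the labelled tissue requires, 7 of 8 on all 9 arrays, whereas 0 of 6 cholangiocyte, 1 of 8 endothelial and 4 of 10 macrophage markers were tested. Erythroid genes moved with the group, with 3 of 4 tested called higher in AAV-GP73 than in AAV-V and 2 called higher than in AAV-V HFD. Hba-a1, a haemoglobin chain with a near copy, Hba-a2, that could share its signal, was 7.54, 7.38 and 8.83 in AAV-V, 13.02, 10.68 and 11.60 in AAV-GP73, and 8.16, 8.53 and 9.08 in AAV-V HFD. Of 3 stellate cell markers tested, AAV-GP73 had 1 called higher (Dcn) and 1 called lower (Des), and AAV-V HFD had 2 called lower (Des and Reln). Their part in the results below was not tested. Levels are log2 processed signals. Arrays were brought to a common level by the 75th percentile of those probes that every array detected. Levels are compared between arrays for 1 probe and not between genes. Fewer cells of a type and less RNA per cell cannot be told apart in whole liver.

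The sequences in front of these genes are shown for 2 sets of members described below. The first are the 3 fibrinogen chains, whose brightest probes moved together from array to array in AAV-GP73 and AAV-V HFD. The others are F9, Pros1 and Proz, the vitamin K dependent genes that passed the test in both groups. Each line gives the 250 bases before the gene's start, 5′ to 3′, from RefSeq on GRCm38.p6, a build other than that of the probe coordinates (mm9). Capitals mark matches, on either strand, to a C/EBP site (TTGCNNAA), a STAT3 site (TTCNNNGAA) or the core of interleukin 6 response elements (CTGGGA).
Fga, chr3:83025903-83026152, plus strand: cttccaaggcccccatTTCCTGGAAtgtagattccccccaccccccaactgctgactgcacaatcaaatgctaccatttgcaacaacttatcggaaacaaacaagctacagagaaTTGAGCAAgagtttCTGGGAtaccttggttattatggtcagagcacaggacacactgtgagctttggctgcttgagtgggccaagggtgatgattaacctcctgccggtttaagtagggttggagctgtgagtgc
Fgb, chr3:83049864-83050113, minus strand: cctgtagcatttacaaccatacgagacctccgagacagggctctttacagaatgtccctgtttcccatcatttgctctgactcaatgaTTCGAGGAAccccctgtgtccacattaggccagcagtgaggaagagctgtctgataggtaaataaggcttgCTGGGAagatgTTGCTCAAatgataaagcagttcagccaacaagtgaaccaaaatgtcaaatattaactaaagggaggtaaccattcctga
Fgg, chr3:83007474-83007723, plus strand: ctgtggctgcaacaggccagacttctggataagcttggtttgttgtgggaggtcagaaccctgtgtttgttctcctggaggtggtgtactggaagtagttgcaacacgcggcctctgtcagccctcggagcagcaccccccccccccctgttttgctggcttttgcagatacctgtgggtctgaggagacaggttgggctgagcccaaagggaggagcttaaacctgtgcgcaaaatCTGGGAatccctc
F9, chrX:59999214-59999463, plus strand: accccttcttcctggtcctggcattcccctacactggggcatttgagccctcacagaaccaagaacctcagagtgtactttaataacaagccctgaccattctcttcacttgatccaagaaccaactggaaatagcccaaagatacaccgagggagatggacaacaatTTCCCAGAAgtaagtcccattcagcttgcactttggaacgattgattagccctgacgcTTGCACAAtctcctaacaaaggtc
Pros1, chr16:62854057-62854306, plus strand: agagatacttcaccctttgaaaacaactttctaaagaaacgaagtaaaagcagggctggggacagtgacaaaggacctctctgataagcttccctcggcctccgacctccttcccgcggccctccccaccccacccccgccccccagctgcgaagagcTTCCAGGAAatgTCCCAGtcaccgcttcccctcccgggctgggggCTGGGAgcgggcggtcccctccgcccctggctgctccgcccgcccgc
Proz, chr8:13060658-13060907, plus strand: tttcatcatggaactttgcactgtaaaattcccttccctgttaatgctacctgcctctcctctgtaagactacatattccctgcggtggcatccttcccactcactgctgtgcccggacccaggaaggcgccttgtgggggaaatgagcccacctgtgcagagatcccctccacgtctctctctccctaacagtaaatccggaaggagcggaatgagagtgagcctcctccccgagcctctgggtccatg

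The windows of Fga and Fgb held all 3 motifs, that of Fgg only CTGGGA and that of Proz none of them. In F9 the STAT3 match and the CTGGGA match, read on the other strand, overlap, while the other matches printed do not. Of the 32 members with a window in the table, 8 (25.0%) held TTGCNNAA, against 9.55% of the windows of 27025 genes. TTCNNNGAA was found in 6 (18.8%, all genes 7.18%) and CTGGGA in 14 (43.8%, all genes 26.8%). These are matches of letters and not sites of binding.

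Compared with AAV-V, 10 members were called higher in AAV-GP73 livers. They were both mannose-binding lectins, C1ra, C4b and C3 of complement, F9, F5, Pros1 and Proz of coagulation, and Clu. Of the 41 members, 37 were detected on all arrays of at least 1 group and were tested, and 4 (Cfd, F7, F13b and Tfpi) were not. A gene was called where limma gave a difference of 2-fold or more with a p under 0.05 after Benjamini-Hochberg adjustment over the 5763 genes tested. By this rule 10 of the 37 were higher in AAV-GP73, and 0 were lower. Of the 10, Mbl1, F9 and Pros1 were detected on no AAV-V array and C1ra on 1. These genes entered the test through groups in which they were higher, and their differences changed sign with normexp background correction. Over all genes tested, 52.6% were called, 33.2% higher and 19.4% lower. The share of members called higher (27.0%) was thus below that of all genes. Before adjustment, 13 members had a p under 0.05. The median log2 fold change was 0.90 for the 37 members and 0.60 for all genes tested. The AAV-GP73 arrays lay wholly above the AAV-V arrays for 19 of the 37 (51.4%) and wholly below for 0, where 67.6% of all genes did not overlap.

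The 20 members detected on all 9 arrays did not enter the test through AAV-GP73 or AAV-V HFD alone. Such genes had to be detected in AAV-V, where the lowest detected level (3.77 to 3.94) was above that of the other arrays (1.85 to 2.81). The set of all such genes therefore leans to genes that are high in AAV-V, and its median and shares are those of genes so selected. Of the 20 members, 6 were called higher (C4b, Mbl2, C3, F5, Proz and Clu) and 0 lower. Of the 2429 genes detected on all 9 arrays, 48.5% were called, 15.9% higher and 32.6% lower. The median log2 fold change of the 20 members was 1.04, which was 1.23 above that of those 2429 genes (-0.19), and all 20 lay above the latter.

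In AAV-V HFD against AAV-V, 4 members were called higher (Mbl2, F9, Pros1 and Proz) and 0 lower, with 6 members at an unadjusted p under 0.05. Over all genes tested, 43.0% were called, 24.8% higher and 18.2% lower. The median log2 fold change was 0.25 for the 37 members and 0.37 for all genes, and 5 of the 37 (13.5%) did not overlap, against 56.9% of all genes. Over the 20 members detected on all 9 arrays it was 0.38, which was 0.74 above that of all such genes (-0.36), and 2 of the 20 were called higher, where 41.5% of all such genes were called, 11.4% higher and 30.1% lower. The comparisons share their 3 AAV-V arrays and are not independent of each other.

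**Figure D1:**
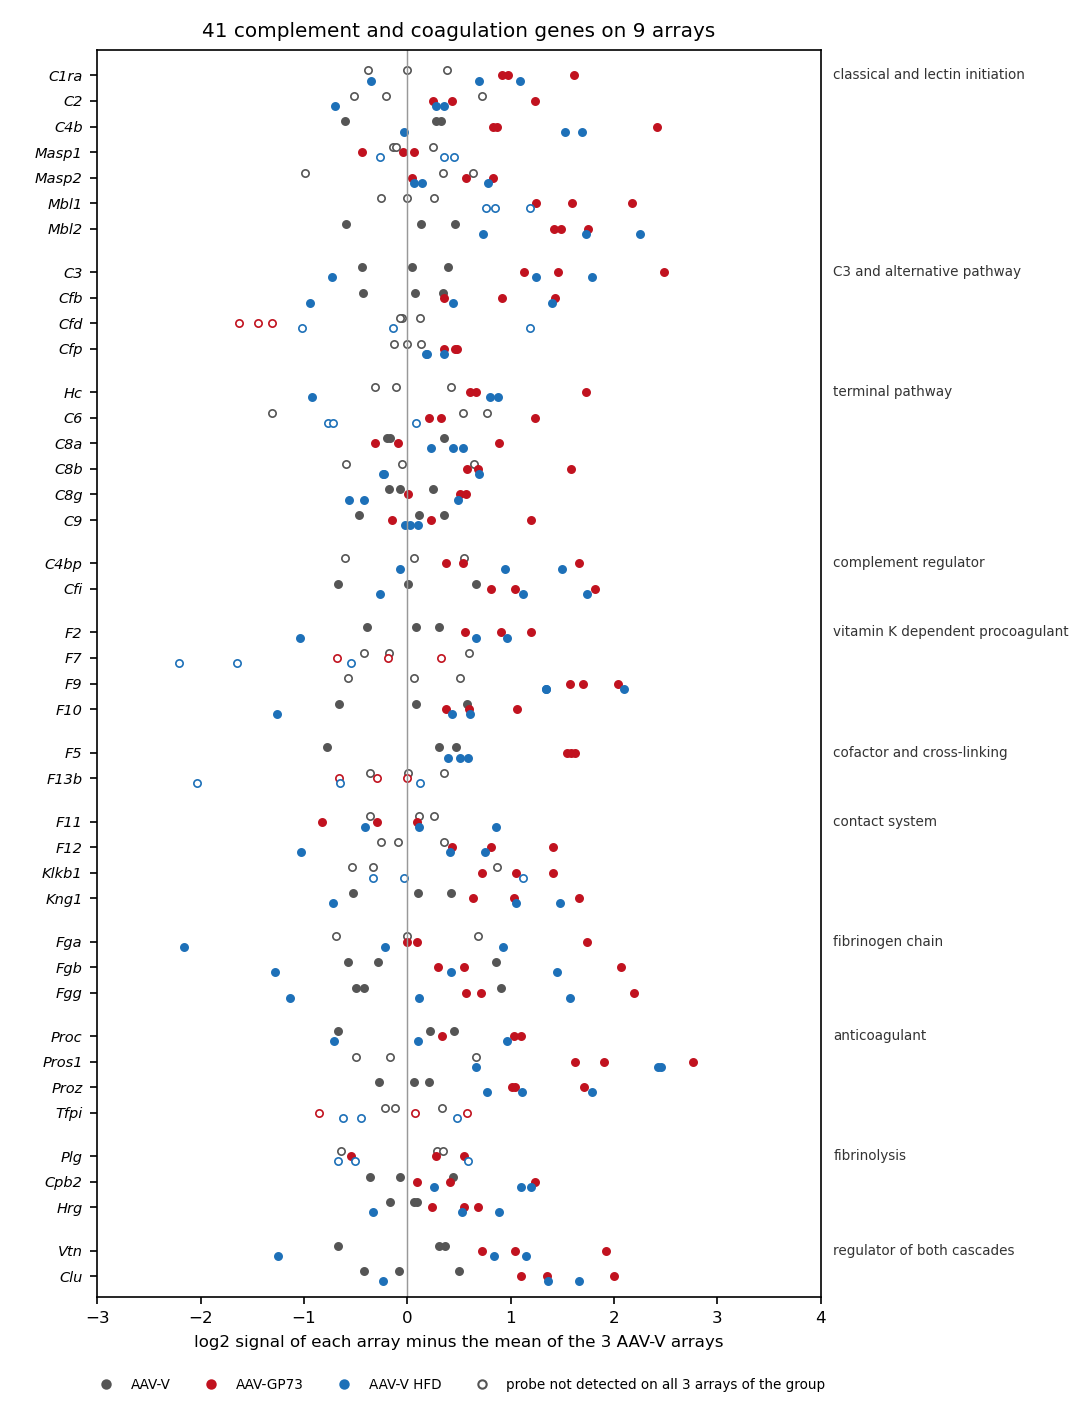
Each point is 1 array, with the log2 signal of a gene minus the mean of its 3 AAV-V arrays on the x axis and the 41 genes by role on the y axis. Open points mark groups in which the probe was not detected on all 3 arrays. The AAV-GP73 points of 19 of the 37 genes tested lie wholly to the right of the AAV-V points, and those of 5 of the 37 in AAV-V HFD do.

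The balance of higher and lower genes rested on how the arrays were set to each other. With the 75th percentile of all probes as the common point, which lies among probes without signal, 35 members were called higher for AAV-GP73, and 26 for mice on HFD. The median of all genes then moved to 1.59 and 1.32 on the log2 scale, and the share of called genes that were higher went from 63.2% to 90.3% and from 57.8% to 94.7%. With spike-in spots as the common point, 37 and 35 members were called higher and the median of all genes was 2.28 and 1.71. After normexp background correction that share was 16.2% and 8.05%, with 5 and 0 members called higher. Only 2 of the 10 members called in AAV-GP73 with the main scaling were among those 5. No member was called lower under any of these settings, but a rise stated here is one relative to the 75th percentile of the probes that every array detected. It is not one relative to all genes tested, whose own median log2 fold change was 0.60 for AAV-GP73 and 0.37 for mice on HFD. Measured from the median of 0.60, C1ra, C4b, Mbl2, F5, Proz and Clu lay less than 2-fold higher. Mbl1, C3, F9 and Pros1 still lay more than 2-fold higher.

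Of the genes that start the classical and lectin pathways, 4 of 7 were called higher in AAV-GP73, against 33.2% of all genes tested. Of the 4, AAV-V detected C4b and Mbl2 on all arrays, C1ra on 1 and Mbl1 on 0, so that Mbl1 and C1ra entered the test through the groups in which they were higher. C4b encodes complement C4, which is cleaved by C1s and the lectin proteases (probe on chromosome 17 of mm9, 34865367 to 34865426). Its levels were 6.71, 5.79 and 6.67 in AAV-V, 8.81, 7.22 and 7.26 in AAV-GP73, and 6.36, 8.08 and 7.92 in AAV-V HFD. All AAV-GP73 arrays lay above all AAV-V arrays, by 1.37 ± 0.53 (log2 fold change ± SE, n = 3 arrays per group, limma adjusted p = 0.0405), whereas AAV-V HFD replicate 1 lay among them. A second C4b probe, detected on 1 AAV-V array, differed by 0.95 in AAV-GP73, with arrays that overlapped those of AAV-V. C4a, a near copy of C4b that could share its signal, was not called in either comparison.

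C1ra, the C1r protease (chromosome 6, 124473052 to 124473111), stood at 4.05, 3.28 and 3.66 in AAV-V, where 1 of 3 arrays detected it, and at 5.27, 4.63 and 4.58 in AAV-GP73. It was called higher (limma adjusted p = 0.0214), but with 2 of the AAV-V arrays not above background its size was not measured, and normexp background correction turned the difference to -0.39. In AAV-V HFD it was 3.31, 4.75 and 4.35, which overlapped AAV-V. C2, Masp1 and Masp2, the other proteases of this step, were not called in any comparison.

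The mannose-binding lectins recognise sugars on microbial surfaces. Mbl2 (chromosome 19, 30314044 to 30314103) was 5.57, 4.52 and 5.25 in AAV-V, 6.86, 6.60 and 6.53 in AAV-GP73 and 5.85, 7.37 and 6.85 in AAV-V HFD, without overlap of either group with AAV-V. It rose by 1.55 ± 0.40 in AAV-GP73 (limma adjusted p = 0.00549) and by 1.57 ± 0.40 in AAV-V HFD (limma adjusted p = 0.0067). Mbl1 (a probe between 41967898 and 41970484 on chromosome 14) was not detected on any AAV-V array, at 1.81, 1.55 and 2.07, and detected on all AAV-GP73 arrays, at 3.98, 3.05 and 3.40. It was called higher (limma adjusted p = 0.000713), but the lowest signal the AAV-V arrays could detect was too high for a least fold change to be stated. In AAV-V HFD, where 2 of 3 arrays detected it, Mbl1 was 2.57, 3.00 and 2.66, wholly above AAV-V. It was not called there only because its fitted difference, no measured size either, was 1.91-fold (limma adjusted p = 0.0224).

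C3, on which all complement pathways converge (chromosome 17, 57343416 to 57343475), was 9.95, 9.11 and 9.60 in AAV-V and 12.04, 11.01 and 10.68 in AAV-GP73. It rose by 1.69 ± 0.57 (limma adjusted p = 0.0233), 3.23-fold, and a second C3 probe differed by 1.58. The AAV-V HFD arrays stood at 8.83, 10.80 and 11.34, that is 1 array below and 2 above all AAV-V arrays, and C3 was not called there. Cfb, the protease of the alternative pathway, was 6.74, 5.96 and 6.47 in AAV-V and 7.82, 7.30 and 6.74 in AAV-GP73, and Cfp, properdin, which stabilises its convertase, was not detected in AAV-V. Neither was called.

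Of the 6 terminal components, 0 were called in any comparison. C9, which polymerises into the pore, was 6.10, 6.34 and 5.51 in AAV-V, 7.18, 5.84 and 6.22 in AAV-GP73 and 6.01, 6.08 and 5.96 in AAV-V HFD, so that all groups overlapped. C8a and C8g, 2 of the C8 chains, overlapped in the same way. Hc, which encodes C5, was 4.70, 4.17 and 3.96 in AAV-V and 6.01, 4.93 and 4.88 in AAV-GP73, without overlap and not called (limma adjusted p = 0.0886). Of the regulators, Cfi, the protease that inactivates C3b and C4b, was 6.03, 4.70 and 5.38 in AAV-V and 7.18, 6.41 and 6.18 in AAV-GP73, and it passed under some alternatives but was not called here (limma adjusted p = 0.0523). C4bp, its cofactor, was not called.

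**Figure D2:**
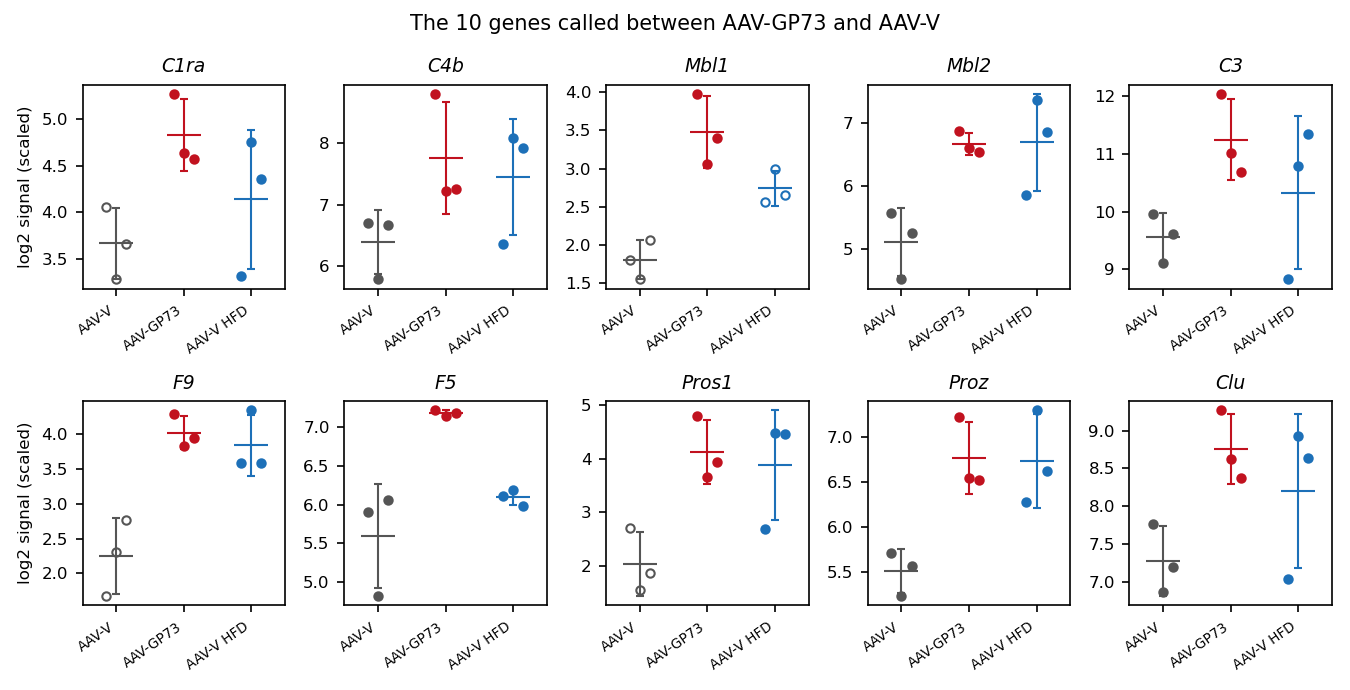
Scaled log2 signal (y axis, a scale of its own in each panel that does not start at 0) of the 10 genes called between AAV-GP73 and AAV-V, for the 3 groups (x axis). Points are arrays, open where the group did not detect the probe on all 3 arrays, and bars are the mean ± SD (n = 3). In each panel the AAV-GP73 arrays lie above the AAV-V arrays, while for C1ra, C4b, C3, F5, Pros1 and Clu at least 1 AAV-V HFD array lies below the highest AAV-V array.

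Besides Mbl2, the members called in both comparisons were vitamin K dependent genes. Of 6 tested, F9, Pros1 and Proz were called higher in AAV-GP73, where 33.2% of all genes were, and the same 3 in AAV-V HFD, where 24.8% were, while F2, F10 and Proc were not called. F9 and Pros1 entered the test through the groups in which they were high, and with normexp their differences turned to -0.51 and -0.42 in AAV-GP73 and to -0.68 and -0.55 in AAV-V HFD. Of the 3, AAV-V arrays detected Proz alone. F9, factor IX (chromosome X, 57283873 to 57283932), was 1.68, 2.31 and 2.76 in AAV-V, where no array detected it, 4.29, 3.83 and 3.95 in AAV-GP73 and 3.59, 4.35 and 3.59 in AAV-V HFD. It was at least 1.12-fold higher in AAV-GP73 (limma adjusted p = 0.000986). For AAV-V HFD (limma adjusted p = 0.00284) no least fold change could be stated.

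Pros1 encodes protein S, a cofactor of activated protein C (chromosome 16, 62929001 to 62929060). It too was detected on no AAV-V array, at 2.70, 1.54 and 1.86, but on all others, at 4.79, 3.66 and 3.93 in AAV-GP73 and 2.69, 4.48 and 4.46 in AAV-V HFD. The least fold change was 1.21 for AAV-GP73 (limma adjusted p = 0.00382) and 1.02 for AAV-V HFD (limma adjusted p = 0.00982). AAV-V HFD replicate 1 lay just below the highest AAV-V array. The other Pros1 probes were not detected on any array.

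Proz, protein Z, a cofactor for the inhibition of factor Xa (chromosome 8, 13075883 to 13075942), was detected on all 9 arrays. The probe is annotated to a predicted transcript, and the gene's other probes, annotated to a curated one, were detected on no array. By the probe used Proz was 5.71, 5.24 and 5.57 in AAV-V, 7.22, 6.55 and 6.52 in AAV-GP73 and 6.28, 7.29 and 6.62 in AAV-V HFD. It rose by 1.26 ± 0.33 in AAV-GP73 (limma adjusted p = 0.00628) and by 1.22 ± 0.33 in AAV-V HFD (limma adjusted p = 0.00922). Averaged with the gene's other probes, which no array detected, the differences turned to -0.58 and -0.44, and the methods' t-test after adjustment did not call the one in AAV-V HFD. By contrast, prothrombin (F2) was 7.83, 7.14 and 7.61 in AAV-V, 8.72, 8.43 and 8.09 in AAV-GP73 and 6.49, 8.49 and 8.19 in AAV-V HFD. Among the genes of the vitamin K cycle and factor transport, Vkorc1, which regenerates vitamin K, was called higher in both, by 1.07 ± 0.25 and 1.16 ± 0.25 (SE, limma adjusted p = 0.00326 and 0.00292). Mcfd2, which helps carry factors V and VIII out of the endoplasmic reticulum, was called in AAV-V HFD and not in AAV-GP73, and those groups did not differ by the test (limma adjusted p = 0.826). Lman1, its partner, was called in neither.

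F5, factor V, the cofactor of factor Xa (chromosome 1, 166149553 to 166149612), was 5.90, 4.82 and 6.06 in AAV-V, 7.22, 7.14 and 7.18 in AAV-GP73 and 6.11, 6.18 and 5.99 in AAV-V HFD. It rose by 1.58 ± 0.33 in AAV-GP73 (limma adjusted p = 0.00152), and its 3 AAV-GP73 arrays spread by an SD of only 0.04. The AAV-V HFD arrays lay below all AAV-GP73 arrays and overlapped AAV-V, and they were not called against either group.

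Of the contact system genes, 0 of 4 were called. Kng1, kininogen 1, was 9.31, 8.36 and 8.98 in AAV-V and 10.55, 9.92 and 9.52 in AAV-GP73, without overlap. For this gene 2 further probes differed by 1.36 and 0.90 where the brightest differed by 1.11. F11, factor XI, was 3.99, 3.51 and 4.13 in AAV-V, 3.97, 3.59 and 3.05 in AAV-GP73 and 4.74, 3.99 and 3.47 in AAV-V HFD. F12 and Klkb1, factor XII and prekallikrein, were not called. Plg, Cpb2 and Hrg, plasminogen and 2 proteins that restrain or modulate fibrinolysis, were not called in any comparison.

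The 3 fibrinogen chains, whose promoters are printed above, were not called. Fgg was 9.44, 8.04 and 8.12 in AAV-V, 10.73, 9.25 and 9.10 in AAV-GP73 and 7.40, 8.65 and 10.11 in AAV-V HFD. Fgb was 9.73, 8.30 and 8.59, then 10.94, 9.43 and 9.17, then 7.60, 9.30 and 10.33 in the same order, and Fga was 5.49, 4.80 and 4.11, then 6.54, 4.90 and 4.79, then 2.64, 4.59 and 5.73. By their brightest probes, the 3 chains thus had the same highest and the same lowest array within AAV-GP73 and within AAV-V HFD. The range within AAV-V HFD was wider than any difference between groups. A second Fga probe was 3.89, 3.02 and 3.40 on the AAV-GP73 arrays, which all detected it, so that its lowest array there was replicate 2. Its order in AAV-V HFD was that of the brightest. This probe, detected on 1 AAV-V and 1 AAV-V HFD array, differed from AAV-V by -0.46 for AAV-GP73 and -1.39 for HFD. The brightest differed by 0.61 and -0.48.

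Vtn and Clu, the 2 regulators counted with neither class, were higher on every AAV-GP73 array than on any AAV-V array. Clu, clusterin, which blocks the terminal complex (chromosome 14, 66600325 to 66600382), was 7.77, 6.86 and 7.19 in AAV-V, 9.27, 8.62 and 8.37 in AAV-GP73 and 7.04, 8.93 and 8.63 in AAV-V HFD. It rose by 1.48 ± 0.47 in AAV-GP73 (limma adjusted p = 0.0167). Vtn, vitronectin, which binds the terminal complex and the plasminogen activator inhibitor, was 7.35, 6.31 and 7.29, then 8.91, 8.03 and 7.70, then 5.73, 8.13 and 7.82, and was not called (limma adjusted p = 0.0797 for AAV-GP73).

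**Figure D3:**
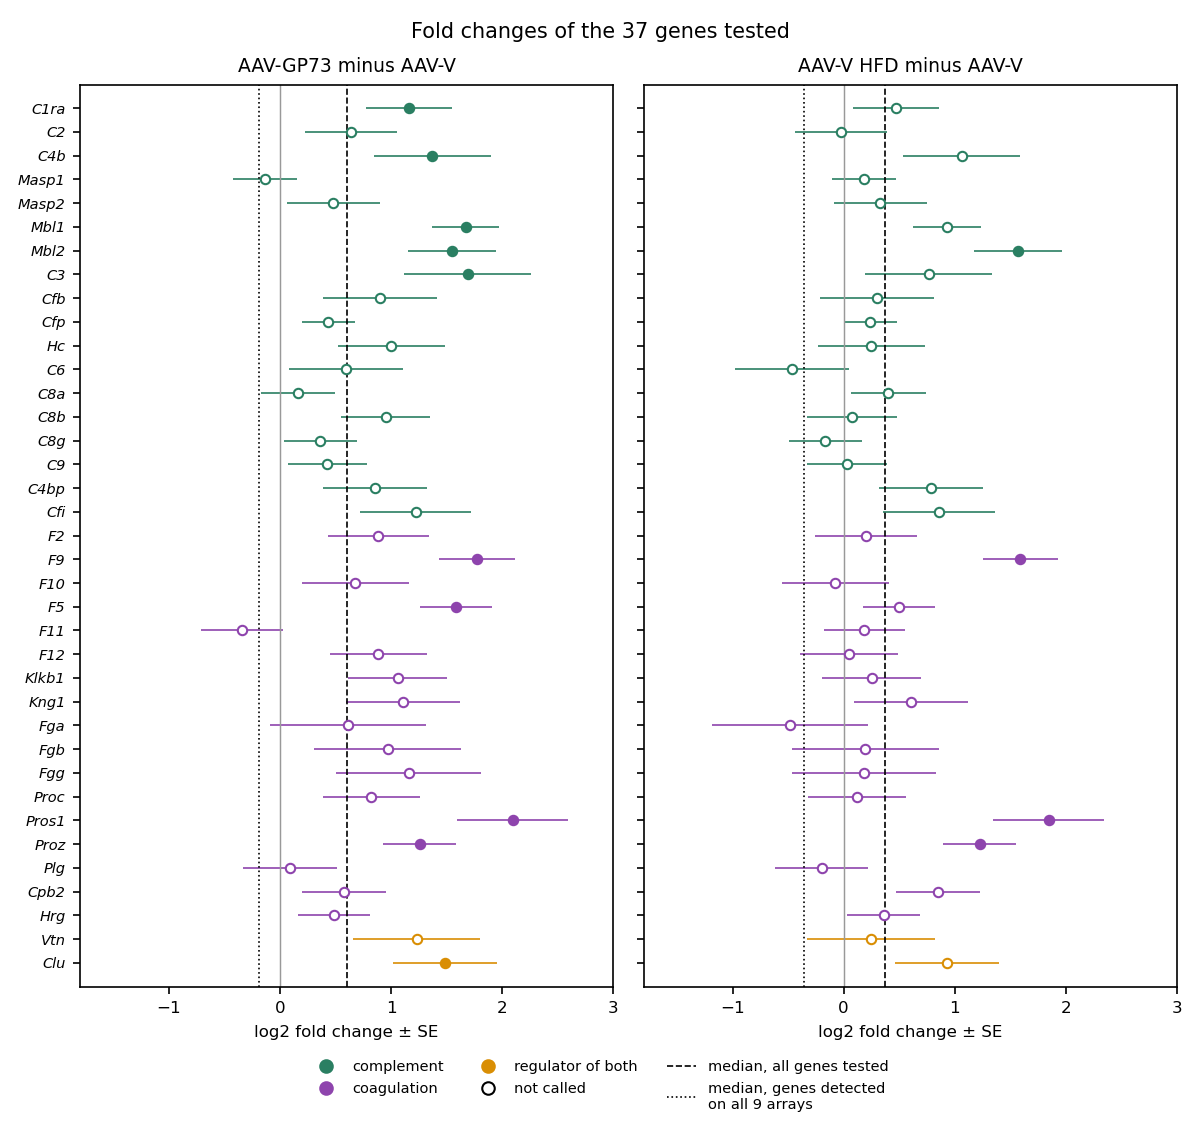
Fitted log2 fold change ± SE (x axis) of the 37 genes tested (y axis) in AAV-GP73 and AAV-V HFD, each against the same AAV-V arrays, with called genes filled. Dashed and dotted lines are the medians of all genes tested (0.60 and 0.37) and of the genes detected on all 9 arrays (-0.19 and -0.36). Of the complement genes 5 and of the coagulation genes 4 are filled on the left, 1 and 3 on the right. The points of Masp1, Masp2, Mbl1, Cfp, C6, F9, Klkb1, Pros1 and Plg are no measured sizes because no AAV-V array detected them. Nor are those of C1ra and C2, which only 1 AAV-V array detected.

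Complement was also set beside coagulation. In AAV-GP73 5 of 18 complement genes (median log2 fold change 0.88) and 4 of 17 coagulation genes (0.89) were called higher, and in AAV-V HFD 1 of 18 (0.32) and 3 of 17 (0.20). The median of complement minus that of coagulation was -0.01 in AAV-GP73, 0.12 in AAV-V HFD and -0.23 between the groups. Over the 8 complement and 10 coagulation genes detected on all 9 arrays, the medians were 1.06 and 0.93 in AAV-GP73, and 0.58 and 0.28 in AAV-V HFD. The sign of the class difference in AAV-GP73 thus depended on which genes were kept.

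Set directly against each other, AAV-GP73 and AAV-V HFD differed in 0 of the 37 members by limma. Of all genes 2.52% were called, 1.96% with AAV-GP73 above and 0.555% below. Of those detected on all 9 arrays 1.52% were called, 1.03% above and 0.494% below. Before adjustment 2 members had a p under 0.05, and the lowest adjusted p was that of F5, which was 1.09 ± 0.33 higher in AAV-GP73 (adjusted p = 0.114). F5 was called when only these 2 groups were fitted, with spike-in scaling, without AAV-V replicate 2 and by the methods' t-test, and not otherwise. In 4 of the 37 members the arrays of these groups did not overlap (Mbl1, Cfp, C6 and F5, all higher in AAV-GP73), against 23.9% of all genes. A member called in AAV-GP73 and not in AAV-V HFD was thus not shown to differ between them.

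The members rose and fell together among arrays of 1 group, more than all genes tested did. AAV-GP73 replicate 1 was the highest of its group for 35 of 37 members (94.6%), against 37.5% of all genes tested, and AAV-GP73 replicate 3 the lowest for 31 (83.8%, all genes 32.6%). AAV-V HFD replicate 1 was the lowest for 29 (78.4%, all genes 39.8%) and AAV-V HFD replicate 2 the highest for 27 (73.0%, all genes 31.8%). AAV-V replicate 1 was the highest for 28 (75.7%, all genes 33.0%) and AAV-V replicate 2 the lowest for 25 (67.6%, all genes 35.4%). Both classes shared this, with 17 of 18 complement and 16 of 17 coagulation genes highest on AAV-GP73 replicate 1. Among genes detected on all 9 arrays, that array was the highest for all 20 members and for 52.6% of all genes. Serpins, a list of protease inhibitors given below, shared the order in part. Of 13 tested, 10 were highest on AAV-GP73 replicate 1 and 12 lowest on AAV-GP73 replicate 3. AAV-V HFD replicate 1 was the lowest for 12 and AAV-V HFD replicate 2 the highest for 7, while 5 were highest on AAV-V replicate 2. The median SD of the members within a group was 0.52 for AAV-V, 0.52 for AAV-GP73 and, the widest, 0.77 for AAV-V HFD, where that of all genes was 0.42, 0.27 and 0.34.

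Other acute-phase proteins shared this order of arrays in part. All 13 tested from a list of acute-phase genes outside the members were highest on AAV-GP73 replicate 1 and lowest on AAV-V HFD replicate 1. In AAV-V HFD, however, 11 of the 13 were highest on replicate 3 and 2 on replicate 2, where 27 members were highest on replicate 2 and 9 on replicate 3. Of the 13, 3 were called higher in AAV-GP73 and 4 in the HFD mice, with median log2 fold changes of 1.30 and 1.40. Saa1, serum amyloid A, was 7.45, 3.42 and 4.02 in AAV-V, 10.80, 4.04 and 5.22 in AAV-GP73 and 5.55, 6.34 and 8.43 in AAV-V HFD, a wider spread within groups than between them. Of 8 hepatocyte markers 0 were highest on AAV-GP73 replicate 1, but all 8 were lowest on AAV-V HFD replicate 1, albumin (Alb) among them at 11.09 against 11.98 and 11.88. The part of an acute-phase difference between single samples in the results above was not tested.

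**Figure D4:**
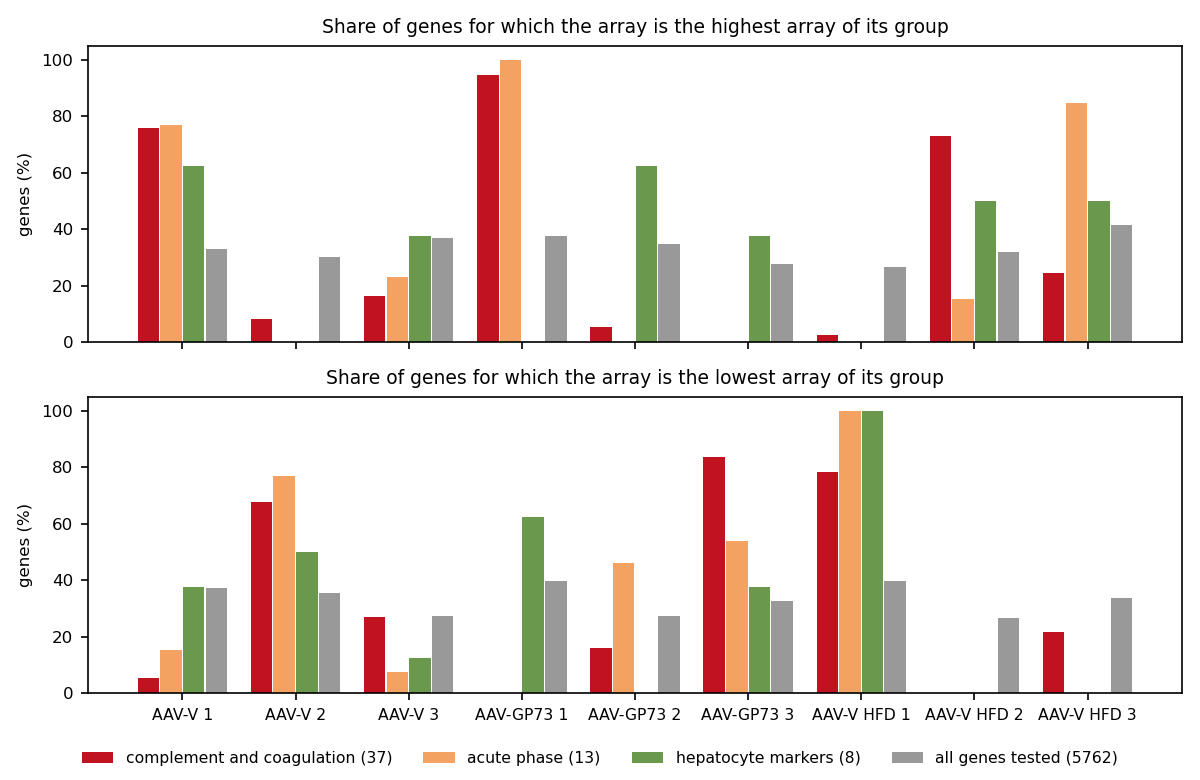
Bars give, for each of the 9 arrays (x axis), the share of genes in percent (y axis) for which that array was the highest (upper panel) or the lowest (lower panel) of its group. The complement and coagulation genes reach 94.6% highest on AAV-GP73 replicate 1 and 78.4% lowest on AAV-V HFD replicate 1, while all genes tested stay between 26.5% and 41.4%.

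Calls therefore hung on single arrays. Without AAV-V HFD replicate 1, 12 members in place of 4 were called higher in AAV-V HFD, the 4 named before with C4b, Mbl1, C3, C4bp, Cfi, Kng1, Cpb2 and Clu, and 14 in AAV-GP73. Without AAV-GP73 replicate 1, 6 of the 10 were left in AAV-GP73, Mbl1, Mbl2, F9, F5, Pros1 and Proz, and the same 6 without AAV-V replicate 2. C1ra, C4b, C3 and Clu thus needed each of these arrays. Without AAV-V replicate 2, C6 was called lower in AAV-V HFD.

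Genes of the same pathways that are not members were given by lists. Of 31 other complement genes on the arrays 11 were tested, with 3 called higher in AAV-GP73 and 1 called lower. Colec11, a collectin that starts the lectin pathway, was undetected in AAV-V and detected on all AAV-GP73 arrays. Cfhr2 was the one that fell, from 7.40, 7.63 and 7.95 to 6.29, 6.22 and 5.60 in AAV-GP73 and to 5.30, 5.97 and 6.03 in AAV-V HFD, where it was the only one called. Of 26 other coagulation genes 7 were tested, and Fgl1, a fibrinogen-like protein of the liver, was called higher in both, but with AAV-V HFD arrays that overlapped AAV-V.

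Serpins, many of which inhibit the proteases of these cascades, were given as a further list. Of 13 tested, 2 were called higher in AAV-GP73 (median log2 fold change 0.12) and 1 lower in AAV-V HFD (median -0.44). Serpinc1, antithrombin, which inhibits thrombin and factor Xa, was 9.10, 8.50 and 9.02 in AAV-V, 9.35, 9.13 and 8.73 in AAV-GP73 and 7.45, 9.06 and 8.74 in AAV-V HFD, and was not called. Among liver transcription factors 6 of 9 tested were called higher in each comparison. Hnf4a, a nuclear receptor known to drive many clotting factor genes, was 6.16, 5.25 and 5.35 in AAV-V, 7.78, 7.91 and 8.45 in AAV-GP73 and 6.71, 6.96 and 7.29 in AAV-V HFD, without overlap between any of the groups. The part of these factors in the levels of the members was not tested.

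Some members are also made outside hepatocytes. Cfd, adipsin, mainly a product of fat cells, was detected by its brightest probe on 0 AAV-V, 0 AAV-GP73 and 1 AAV-V HFD array, while Adipoq, Plin1, Lep and Retn, the other fat cell markers apart from Fabp4, were not tested. Cfp and C1ra can come from macrophages and other cells, and of the 4 macrophage markers tested 1, Clec4f, was called higher in AAV-GP73, while Adgre1, Cd68, Vsig4 and Timd4 were not tested. Their part in the results was not tested. F7, F13b and Tfpi were detected on 1, 2 and 0 of the 9 arrays.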

How the data were processed

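Cy3-labelled liver RNA of 9 samples, 3 per group, was read on one-colour Agilent arrays with probes of 60 bases. The authors deposited the scanner output, from which the processed intensity was used. The headers name Feature Extraction 12.0.3.1, and the signals were detrended within an array and not scaled across arrays. A table of log2 values that the authors deposited covers 56605 probes. Its column medians were 0.799 to 0.801, and its normalization is not given in the sources used here. It served as an alternative. Probe positions (mm9), gene names and probe sequences are those of the files. Whether a probe lies in a coding exon or a UTR is not given there.

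Processed signals were put on the log2 scale and shifted to a common 75th percentile of the 4864 spots detected on all 9 arrays, because under 1 in 5 spots were detected and the percentile of all probes lies among those without signal. Between 98 and 151 flagged spots per array were left out, and 0 were saturated. Genes that 1 or more groups detected on each of their arrays were fitted together in R 4.3.3 with limma 3.58.1 (lmFit, eBayes), and p values were adjusted over the 5763 genes. Exact permutation of 3 against 3 arrays cannot go below p = 0.1. Least fold changes set undetected arrays to their lowest detected signal or the probe's own value if higher. The steps were tested on simulated data. The number of arrays limits the precision.

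Members and lists were chosen with earlier results of these data known. Values were given for called members and at least 1 member of each role, and other genes were named where their list's result turns on them. Motifs were chosen after the values were seen. Same-numbered samples of different groups did not deviate together (residual correlations -0.12 to 0.17, 2 of 9 over 0.1), so that numbers were not treated as pairs. Alternatives were other scalings, normexp background, filters, probe averages, tests and left-out arrays.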

Additional observations from a re-analysis of the deposited data

Results flagged for a closer look

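A signal outside the comparisons was seen for Cfd, adipsin. Its second probe, which was not used because the other was brighter on average, was well above background on 2 of 3 AAV-V HFD arrays (2.67 and 4.03, with 0.54 on the third) and on no array of AAV-V (1.45 to 1.69) or AAV-GP73. The gene was not tested, and the probes of other fat cell genes were at background, apart from Fabp4.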

How the results depend on the processing

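The number of members called higher, which was 10 in AAV-GP73 but 4 with HFD, depended most on the scaling. It was 35 and 26 with the 75th percentile of all probes, 37 and 35 with spike-in spots, and 5 and 0 with normexp at an offset of 50, which exceeds the AAV-V signal of 8 of the 10 called members. Of those 10 calls normexp kept 2, and the rest of its 5 were members not called with the main scaling. Normexp turned the log2 fold change of C1ra (-0.39), Mbl1 (-0.58), F9 (-0.51) and Pros1 (-0.42) in AAV-GP73, and of F9 (-0.68) and Pros1 (-0.55) in AAV-V HFD. Averaging all probes of a gene, including undetected ones, turned Pros1 (-0.41), Proz (-0.58) and Clu (-0.12) in AAV-GP73 and Pros1 (-0.32) and Proz (-0.44) in AAV-V HFD, where 2 members were left. In AAV-V HFD 2 were also left among genes detected on all 9 arrays, and 0 by the methods' t-test after adjustment. Without a filter on dim probes, 1 member was called lower in each comparison with AAV-V, and 0 between AAV-GP73 and AAV-V HFD.

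Between AAV-GP73 and AAV-V HFD, 1 member was called with spike-in scaling, with only these groups fitted, and by the methods' t-test before and after adjustment, and 0 otherwise apart from 1 array left out. The median of complement minus coagulation in AAV-V HFD went from 0.12 to -0.21 with normexp, 0.33 with the authors' log2 values, 0.31 among genes detected on all 9 arrays and -0.026 with averaged probes.

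Leaving out 1 array gave 6 to 14 members higher in AAV-GP73, 3 to 12 higher and 0 to 1 lower in AAV-V HFD, and 0 to 1 between those groups. The differences of the class medians then ran from -0.10 to 0.07, -0.085 to 0.26 and -0.23 to 0.11. Without the array of highest Saa1 in each group, a setting chosen after seeing the data, 6 and 4 members were called and the class difference in AAV-V HFD was 0.40. The replicate block gave 9, 4 and 0 members, the call lost being C4b (limma adjusted p = 0.0590), and the numbers did not pair the samples. Apart from the scaling, 3 arrays per group and dim AAV-V signals limited what could be detected.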
